A study of Danio rerio with 8 samples.

Results

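A set of 10 transcription factors that build the endoderm and the yolk syncytial layer of the zebrafish embryo is described here across embryos injected with a morpholino against prmt6. The members were taken by gene symbol from the platform annotation, and 9 of the 10 were on the array, with 1 probe set each, among 8781 genes named by a probe set of a single gene. They were mxtx2 (Entrez gene 58078), sebox (282666), mixl1 (30115), gata4 (30483), gata5 (30482), gata6 (58076), sox32 (116990), sox17 (30544) and foxa3 (30559). The homeobox gene mxtx1 (100149566) had no probe set under its symbol, synonyms or Entrez number and was not analysed here.

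The study measured total RNA of whole zebrafish embryos at 6 hours post fertilization (hpf) on Affymetrix zebrafish genome arrays. The severe, mild and normal groups had each received 3 nl of a 0.3 mM morpholino (MO, an antisense oligonucleotide) against prmt6, which encodes an arginine methyltransferase, and were sorted by shape at collection. Controls received the same volume and concentration of a control morpholino (cMO), so all 4 groups were injected. There were 3 severe arrays, 1 mild array, 1 normal array and 3 control arrays, and no strain was given in the labels. The titles call the replicates biological without naming separate clutches, so p-values measure the spread between these arrays.

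In the early gastrula, Nodal signals from the yolk syncytial layer and the embryonic margin turn marginal cells into mesoderm and endoderm. The yolk syncytial layer is a layer of nuclei under the blastoderm that feeds the embryo from the yolk, and mxtx2 is needed to form it in zebrafish. Downstream of Nodal, the homeobox factors mixl1 (Bon) and sebox (Mezzo) and the zinc-finger factor gata5 act on sox32. The SOX factor sox32 commits cells to endoderm and switches on sox17, and foxa factors mark endoderm and axial mesendoderm.

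The prmt6 transcript itself ran from 11.10 to 11.41 on the log2 scale on the severe arrays and was 11.13 on the mild and 11.22 on the normal array, against 9.56 to 9.87 on the controls. It was higher in severe embryos by 1.57 (limma adjusted p = 0.000115). Morpholinos block translation or splicing and need not lower an mRNA, so these values separate morpholino from control arrays but say nothing of the protein. Some arrays stood apart in a way that the groups do not explain. Across tested probe sets, control 3 correlated with the other controls at Spearman's rho of 0.971, against 0.993 between controls 1 and 2. Severe 3 correlated at 0.983 with the mild array and at 0.959 and 0.966 with severe 1 and severe 2. Signal differences between 3′ and 5′ probe sets of GAPDH, a sign of RNA quality, ran from -0.59 to 0.23 in severe and from -0.48 to 1.08 in control arrays on the log2 scale, with 0.47 in mild and 0.58 in normal. For the actin gene acta1 the same difference was 0.99, 0.84 and 3.73 on the severe arrays. It was 0.37 on the mild and 3.76 on the normal array, against 0.71, 2.48 and -1.50 on the controls. The GAPDH ranges overlapped, while for acta1 severe 3 and the normal array lay above every control. For GAPDH both arrays lay within the control range, so these signs of RNA quality disagree. On the second principal component, with 15.8% of the variance, severe 3 (26.5), the mild array (30.9), the normal array (19.6) and control 3 (3.30) lay on the positive side, and the other 4 arrays between -25.9 and -16.6. The mild and normal arrays thus lay on the side of control 3 and away from controls 1 and 2, and the part of that split in their differences from the control mean was not tested. The labels named no batch. Values with replicates 1 and 2 of severe and control only, or without severe 3, are given where they alter a member's call.

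In severe embryos 5 of the 7 tested members fell, mxtx2 rose, and foxa3 did not pass the test. Of the 5, sebox was under the array background on the severe arrays. It cleared the filter on dim probe sets only through the control and normal arrays. The falls were gata6 (7.30-fold), sox32 (6.74-fold), sebox (at least 4.30-fold), gata5 (4.26-fold) and mixl1 (2.74-fold), and mxtx2 rose 3.27-fold. The mild array had gata6 and sebox lower and mxtx2 higher, while on the normal array none of the 7 passed. Among 9301 tested probe sets, 38.6% passed in severe against control, 17.6% lower (1636) and 21.0% higher (1951), so a call by itself was common. When arrays were scaled on hybridisation controls instead, 1903 were lower and 474 higher, with the same member calls and foxa3 added. The median difference of the 7 members was -2.09 on the log2 scale, against 0.11 over all tested probe sets. The members, and the gene lists below, were chosen with earlier results of these data known. Their medians and counts therefore describe these sets and do not test them. All differences are group means on the deposited log2 scale, fitted with limma and adjusted by Benjamini-Hochberg over all 9301 probe sets at a threshold of 0.05. In whole-embryo RNA, fewer cells of a type and less RNA per cell cannot be told apart.

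**Figure D1:**
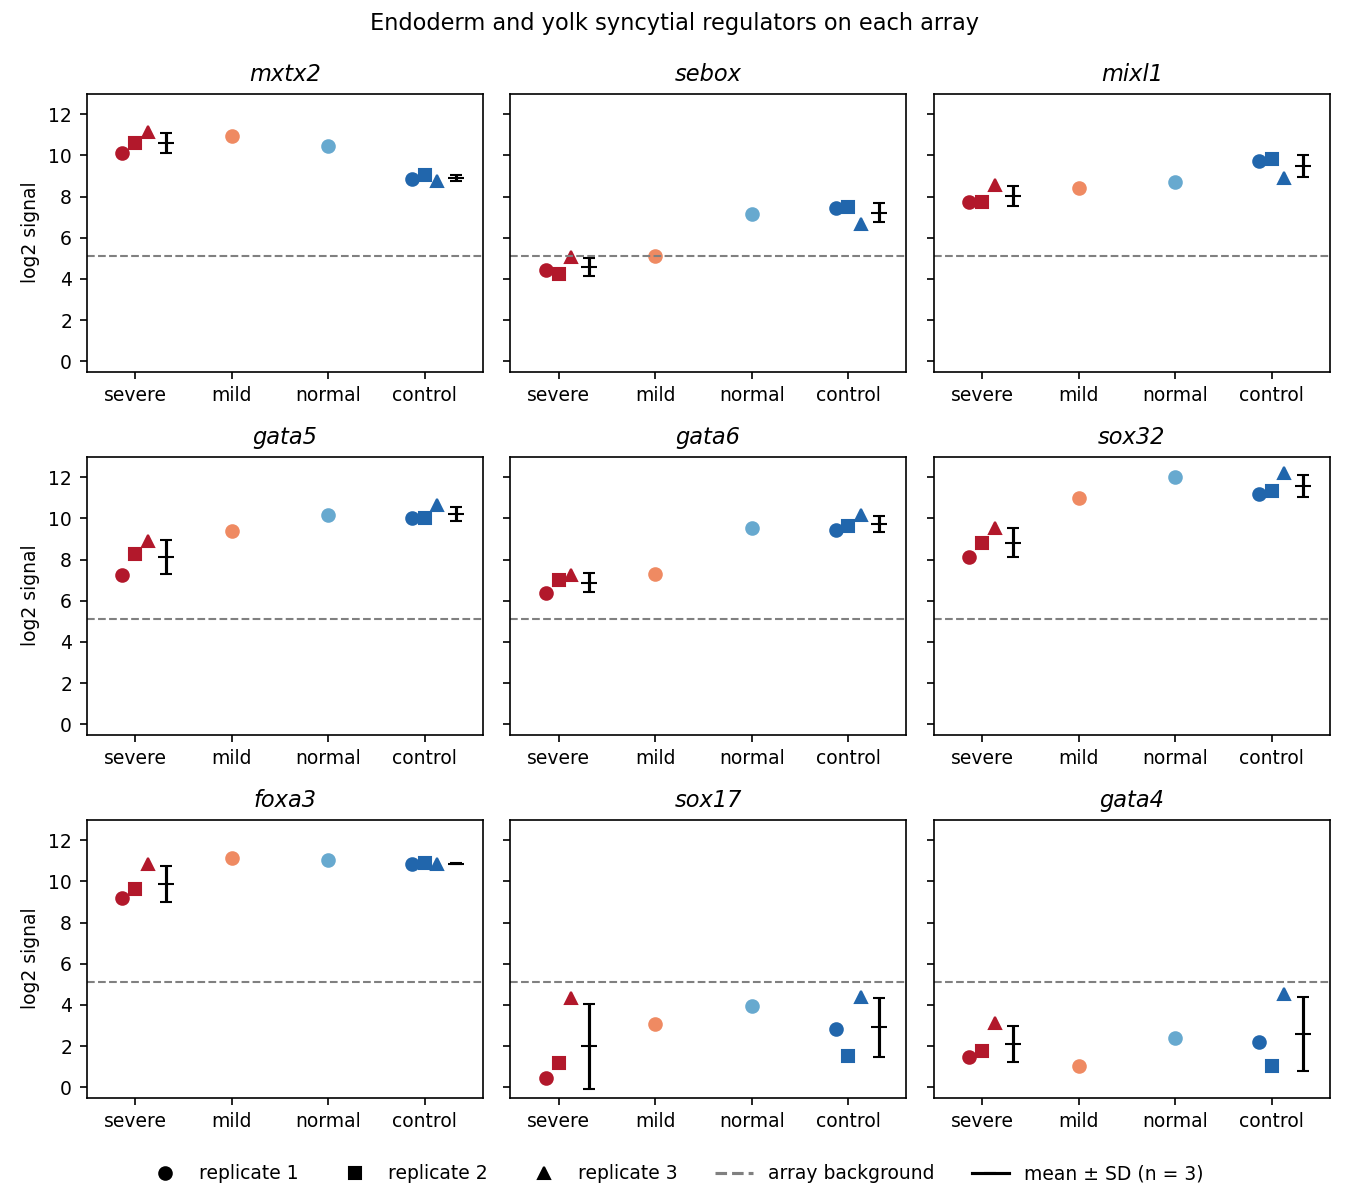
Log2 signal (vertical axis) of each of the 9 members on each of the 8 arrays, by group. Symbols mark replicate numbers, bars give the mean ± SD of the 3 severe and the 3 control arrays, and the dashed line is the array background at log2 5.10. The 3 severe arrays and the mild and normal arrays lie above all controls for mxtx2, and sox17 and gata4 lie under the background on all 8 arrays.

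The regulator of the yolk syncytial layer, mxtx2, was higher on every array that had received the prmt6 morpholino. Its log2 signal was 10.11, 10.58 and 11.11 on the severe arrays, 10.92 on the mild array and 10.47 on the normal array, against 8.87, 9.05 and 8.75 on the controls. No morpholino array overlapped a control, and the mild and normal arrays lay within the severe range. The severe mean of 10.60 ± 0.50 differed from the control mean of 8.89 ± 0.15 (SD, n = 3 each) by 1.71 on the log2 scale (SE 0.23, limma adjusted p = 0.000708). The mild array was 2.03 above the control mean (limma adjusted p = 0.00748). The normal array was 1.58 above it, which did not pass (limma adjusted p = 0.279, unadjusted p = 0.001). With replicates 1 and 2 of control and severe alone, the normal difference was 1.51 and passed, in a fit where calls were more common over all probe sets. Between severe and normal arrays the mxtx2 difference was 0.13, with a 95% interval from -0.63 to 0.88 (limma adjusted p = 0.805).

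The factor sebox, a homeobox gene induced by Nodal, dropped to the array background in severe embryos. The severe arrays read 4.45, 4.22 and 5.06, the mild array 5.12 and the normal array 7.14, against 7.44, 7.51 and 6.67 on the controls. The background was set at log2 5.10, the 95th percentile of 17 negative control probe sets over all arrays, and the 3 severe arrays lay under it. Against the control mean of 7.21 ± 0.47 (SD, n = 3) the fold was therefore a bound, at least 4.30-fold lower in severe embryos, with a limma adjusted p of 0.000576. The probe set cleared the filter on dim probe sets only through the control and normal arrays. The mild array, at the background, differed by -1.55 from control 3 alone, with no test, and from the control mean by -2.08 (SE 0.49, limma adjusted p = 0.0253). That call was lost without control 1 (limma adjusted p = 0.069) or without control 2 (limma adjusted p = 0.0708). The normal array lay between the controls.

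The other Nodal-induced homeobox factor, mixl1, moved less, and its replicates split by number. It read 7.75, 7.74 and 8.58 on the severe arrays, 8.41 on the mild and 8.72 on the normal array, against 9.71, 9.83 and 8.88 on the controls. Every severe array was below every control, but severe 3 minus control 3 was only -0.30 on the log2 scale. The severe mean of 8.02 ± 0.48 differed by -1.45 from the control mean of 9.47 ± 0.52 (SD, n = 3 each; limma adjusted p = 0.00661). The severe difference was -2.03 with replicates 1 and 2 alone (limma adjusted p = 6.37e-05). The mild array differed by -1.06 without passing (limma adjusted p = 0.149), and the normal array by -0.75, also without passing (limma adjusted p = 0.622). With replicates 1 and 2 of control and severe only, both passed, at -1.36 in mild and -1.05 in normal. Calls were more common over all probe sets in that fit. Against control 3 alone, the differences were smaller, at -0.47 for the mild and -0.16 for the normal array, values with no test.

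Of the 3 GATA zinc-finger genes, gata6 and gata5 fell and gata4 was not detected. The gene gata6, active in the yolk syncytial layer and the heart-forming and gut-forming cells, read 6.36, 6.98 and 7.26 on the severe arrays. It read 7.31 on the mild array and 9.51 on the normal array, against 9.43, 9.61 and 10.18 on the controls. The mild array lay just above the severe range, and the normal array within the control range. The severe mean of 6.87 ± 0.46 differed by -2.87 from the control mean of 9.74 ± 0.39 (SD, n = 3 each; SE 0.29, limma adjusted p = 0.00019). The mild array differed by -2.43 (SE 0.41, limma adjusted p = 0.00847), and by -2.87 from control 3 alone, a value with no test. For the normal array the difference was -0.22, with a 95% interval from -1.15 to 0.70 (limma adjusted p = 0.887).

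The endoderm and heart regulator gata5 fell in severe embryos, with the normal array inside the control range. It read 7.25, 8.25 and 8.88 on the severe arrays, 9.39 on the mild array and 10.15 on the normal array, against 10.03, 10.00 and 10.62 on the controls. All severe arrays lay below the mild array, which lay below all controls, an order shared by gata6 and sox32. For gata6 the step from severe 3 (7.26) to the mild array (7.31) was small. For sebox the severe and mild arrays were under or at the background, so their order could not be read. Of all tested probe sets, 25.1% had all severe arrays below the mild array, and 36.9% had the mild array below all controls. The severe mean of 8.13 ± 0.82 differed by -2.09 from the control mean of 10.22 ± 0.35 (SD, n = 3 each; limma adjusted p = 0.00245). The mild difference of -0.82 did not pass (limma adjusted p = 0.334; 95% interval -2.01 to 0.36). The probe set of gata4, a heart and gut factor, stayed under the background on all 8 arrays, between 1.06 and 3.12 in the morpholino groups and between 1.02 and 4.52 in controls, so no difference could be measured.

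The endoderm commitment gene sox32 fell in severe embryos. Its severe arrays read 8.11, 8.82 and 9.54, the mild array 11.00 and the normal array 11.99, against 11.20, 11.34 and 12.18 on the controls. The mild array lay just below the lowest control and above all severe arrays. The severe mean of 8.82 ± 0.72 differed by -2.75 from the control mean of 11.57 ± 0.53 (SD, n = 3 each; SE 0.36, limma adjusted p = 0.000587). For the mild array the difference was -0.57 (limma adjusted p = 0.501; 95% interval -1.72 to 0.58). Against control 3 alone the mild difference was -1.18, with no test. The normal array differed by 0.42 (limma adjusted p = 0.822). Its target sox17, separated from sox32 by 1 annotated gene in RefSeq's GRCz12tu annotation, was under the background on all 8 arrays, with values from 0.44 to 4.34 in the morpholino groups and from 1.54 to 4.38 in controls. These dim readings gave no measure of whether sox17 followed sox32.

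The forkhead gene foxa3, a marker of axial mesendoderm and endoderm, was lower on severe arrays 1 and 2 only. It read 9.17, 9.63 and 10.86 on the severe arrays, 11.13 on the mild array and 11.06 on the normal array, against 10.84, 10.90 and 10.85 on the controls. Severe 3 fell inside the narrow control range. The severe difference of -0.97 did not pass (SE 0.35, limma adjusted p = 0.0562). Without severe 3 it was -1.46 and passed (limma adjusted p = 0.000473), so in the main model the call turned on that array. With severe 3 kept and the same scaling, it passed with the replicate number as a block (-0.97, limma adjusted p = 0.0127). It also passed with quantile normalization (limma adjusted p = 0.0467) and with scaling on hybridisation controls (limma adjusted p = 0.00628). The mild and normal arrays differed by 0.27 and 0.19 (limma adjusted p = 0.764 and 0.922), and both signs turned when scaled on hybridisation controls.

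**Figure D2:**
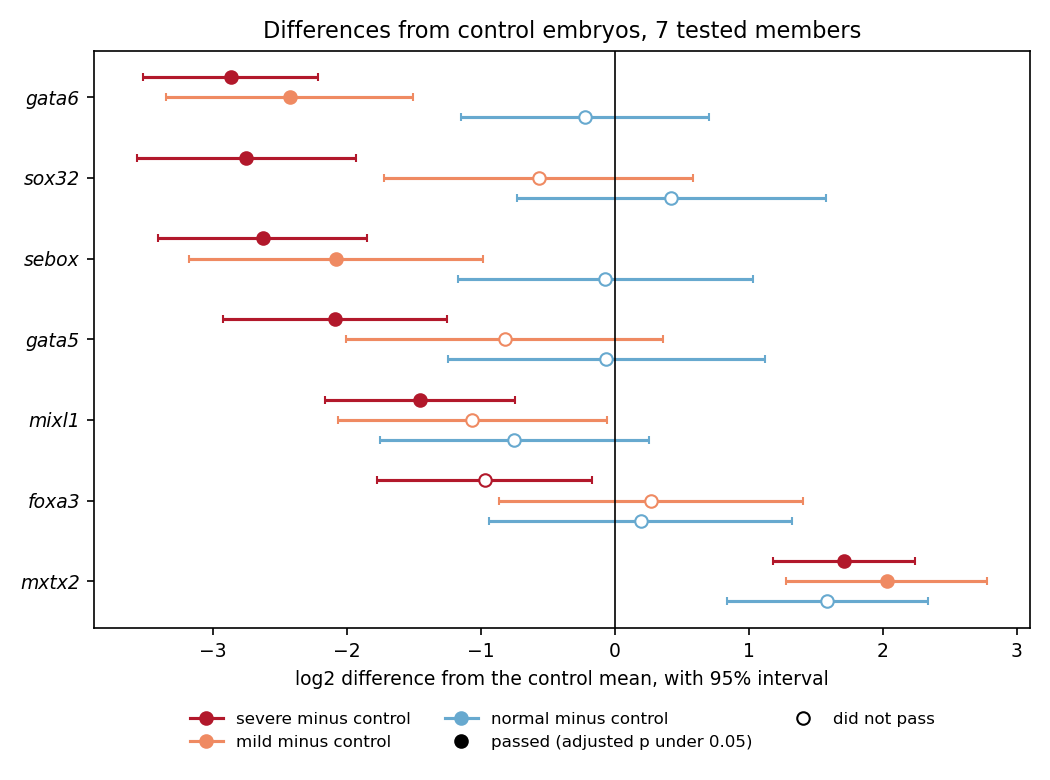
Log2 difference from the control mean (horizontal axis) for the 7 tested members, with 95% intervals from the limma fit. Filled circles passed the threshold of 0.05 after adjustment and open ones did not. For gata6 and mxtx2 the mild point lies near the severe one, and for sox32, gata5 and foxa3 it lies nearer 0. For sebox the severe and mild arrays were under or at the array background, so the distance between these points could not be read.

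Separation of arrays alone was common. All 3 severe arrays lay below all controls for 5 of the 7 tested members and above them for 1, where 23.4% of all tested probe sets separated below and 29.4% above. The mild array lay below all controls for 5 and above them for 2 (background 36.9% and 39.0%), and the normal array below them for 1 and above them for 2 (32.9% and 29.0%). All severe arrays lay below the mild array for 5 (background 25.1%) and below the normal array for 6 (32.4%). The 5 include sebox, whose severe and mild readings were under or at the array background.

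On the mild array 2 of the 7 tested members fell (gata6 and sebox) and 1 rose (mxtx2), where 8.78% of all tested probe sets passed lower and 4.69% higher. No member passed on the normal array, a comparison that called 0.043% of tested probe sets. Both fits assume that a lone array varies like the replicated groups. The severe, mild and normal comparisons share the same controls, so their values stand side by side and are not independent. In fits with replicates 1 and 2 of severe and control only, the share of probe sets that passed was 48.2% in severe, 32.7% in mild and 11.8% in normal embryos against control, so passing was more common there.

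Severe embryos were also set against the other morpholino groups, comparisons added after the values were seen. Against the mild array, sox32 differed by -2.18 on the log2 scale (95% interval -3.34 to -1.03), gata5 by -1.27 (-2.45 to -0.08) and foxa3 by -1.24 (-2.37 to -0.11). None passed (limma adjusted p = 0.481 for each), nor did any of the 9301 probe sets, of which 948 had an unadjusted p under 0.05. With replicates 1 and 2 of severe and control only, where 28.4% of all probe sets passed, sox32 (-2.54), foxa3 (-1.73), gata5 (-1.64) and mixl1 (-0.67) passed, with limma adjusted p of 0.00404, 0.00409, 0.0139 and 0.0278. The intervals for gata6 (-1.36 to 0.48) and mxtx2 (-1.07 to 0.43) included 0, and sebox, under or at the background in both groups, gave no measure of a difference. Against the normal array, where 21.7% of probe sets passed and 10.4% passed lower, sox32 (-3.17), gata6 (-2.64), sebox (-2.56) and gata5 (-2.02) were lower in severe embryos with limma adjusted p of 0.00724, 0.0067, 0.0117 and 0.0282. For sebox that value is bounded by the background, at least 4.09-fold lower. The gata5 call was lost without severe 2 (limma adjusted p = 0.0584) and without the variance trend (limma adjusted p = 0.0531). Neither mixl1 (-0.70, limma adjusted p = 0.271) nor foxa3 (-1.17, limma adjusted p = 0.119) passed. Without severe 3, foxa3 passed at -1.65 (limma adjusted p = 0.0039). With replicates 1 and 2 only, where 51.6% of all probe sets passed, mixl1 passed too, at -0.98 (limma adjusted p = 0.00281).

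The Nodal input list held genes of the Nodal pathway, its antagonists and other regulators such as eomesa and nanog. Some of them fell and some rose in severe embryos, so the counts are not a measure of Nodal signalling. Of 20 genes listed, 15 were on the array and 13 were tested, of which 4 fell and 3 rose, with a median of -0.09, where 17.6% of all tested probe sets fell and 21.0% rose. With hybridisation control scaling 4 fell and 1 rose, and without the variance trend 2 fell and 2 rose. The co-receptor gene tdgf1 (one-eyed pinhead) read 11.29, 11.58 and 11.68 on the severe arrays, against 12.47, 12.47 and 12.36 on the controls. The groups did not overlap, and tdgf1 fell by 0.92 (limma adjusted p = 0.000854). The Nodal transcription factor gene foxh1 fell by 0.67 (limma adjusted p = 0.00299), with its second probe set at -0.87 (limma adjusted p = 0.00502). The antagonist genes lft1 and lft2, themselves Nodal targets, fell by 0.85 and 0.54 (limma adjusted p = 0.037 and 0.0494).

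The 3 rises of that list were eomesa, nanog and gdf3. The maternal T-box factor eomesa, which acts in sox32 induction, read 10.71, 10.61 and 10.25 on the severe arrays, against 9.31, 9.51 and 8.80 on the controls. All severe arrays were above all controls, a difference of 1.32 (limma adjusted p = 0.00145). The homeobox gene nanog, known in zebrafish to act on mxtx2, read 13.85, 14.04 and 14.06 in severe, 14.00 in mild and 13.36 in normal embryos, against 13.48, 13.38 and 12.78 in controls. It was higher in severe embryos by 0.77 (limma adjusted p = 0.0104), while the mild value of 0.79 did not pass (limma adjusted p = 0.0799). The Nodal partner gdf3 (Vg1) was higher by 0.48 (limma adjusted p = 0.0166). The Nodal ligand genes ndr1 (0.18) and ndr2 (-0.47) did not pass (limma adjusted p = 0.631 and 0.351). Also without a call were the receptor genes acvr1ba (-0.09) and acvr2ba (0.11), pou5f3 (-0.21) and smad2 (0.77, limma adjusted p = 0.0527). A dimmer acvr2ba probe set read 0.70 higher and passed (limma adjusted p = 0.00353). Another acvr2ba probe set differed by -0.33 without passing (limma adjusted p = 0.371), so the probe sets of this gene disagree. On the mild and normal arrays 0 of these 13 genes passed, where 13.5% and 0.043% of all tested probe sets did.

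**Figure D3:**
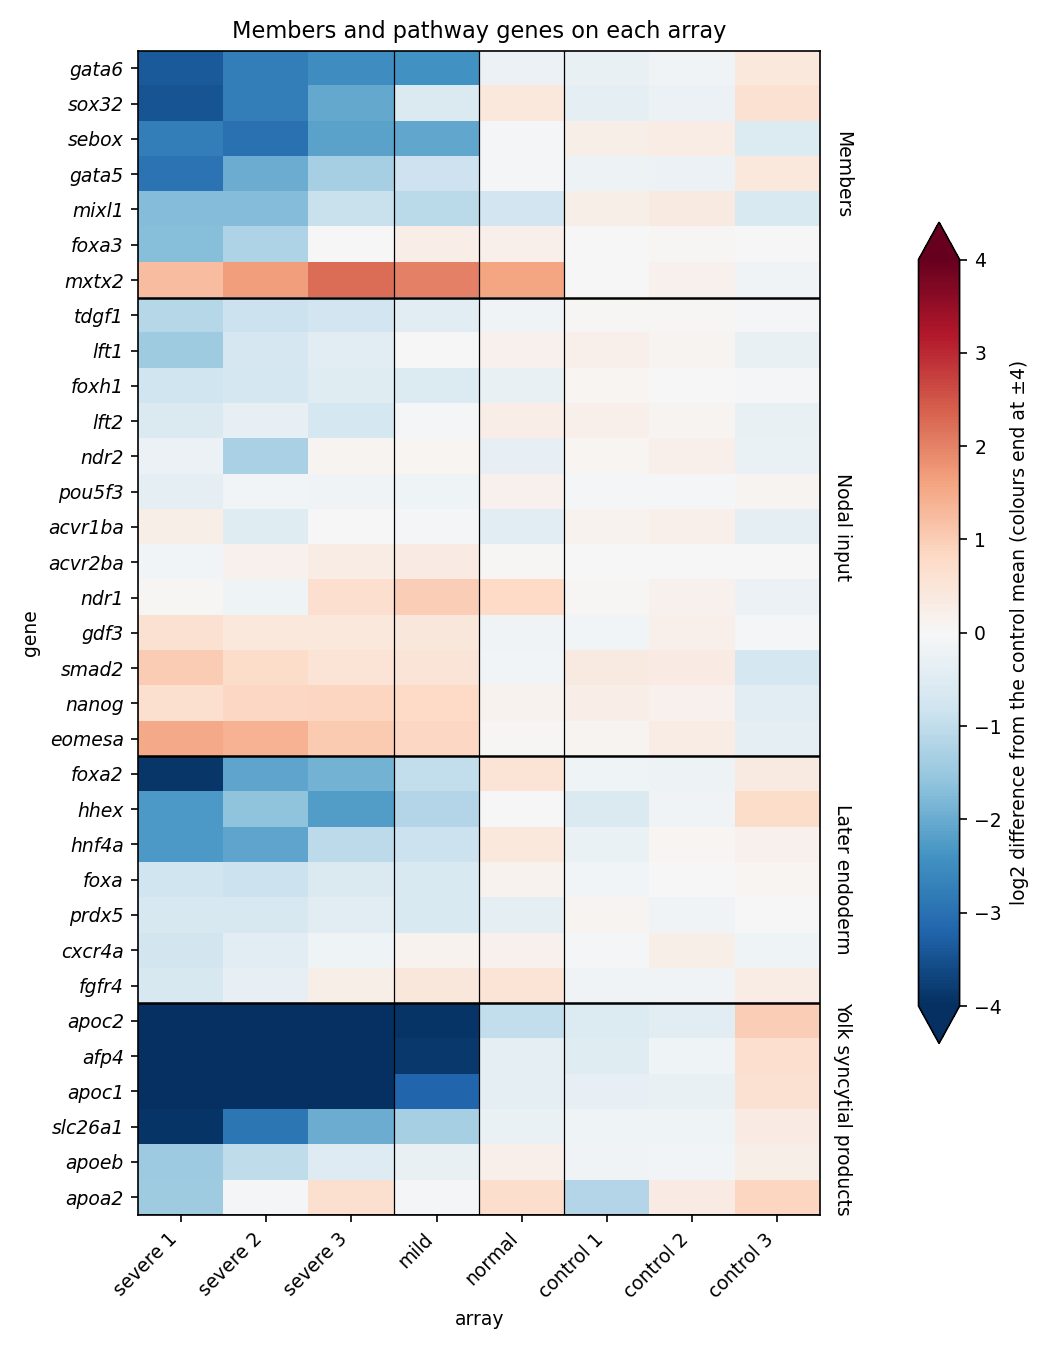
Log2 difference from the control mean (colour, ending at ±4) on each array (columns) for the 7 tested members and for the tested genes of the Nodal input, later endoderm and yolk syncytial product lists (rows, ordered in each list by the severe difference). Red is higher and blue lower than the control mean. Within the Nodal list both colours appear in the severe columns, while 5 of 6 yolk syncytial products passed as lower. Of all tested probe sets, 17.6% passed as lower.

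Later endoderm genes fell in part. Of 11 listed, 9 were on the array and 7 tested, and 4 fell and 0 rose in severe embryos, with a median of -0.74. Of all tested probe sets, 17.6% fell and 21.0% rose. The forkhead gene foxa2 read 4.81, 6.60 and 6.80 on the severe arrays, against 8.52, 8.50 and 9.07 on the controls. It fell by 2.63 (limma adjusted p = 0.00289), with severe 1 under the background. The homeobox gene hhex, a liver and foregut factor, lay under the background on all severe arrays (limma adjusted p = 0.00313), a fall of at least 2.87-fold. It cleared the filter on dim probe sets through the other groups. The nuclear receptor gene hnf4a fell by 1.81 (limma adjusted p = 0.00354), and foxa by 0.74 (limma adjusted p = 0.00658). The chemokine receptor gene cxcr4a (-0.45), prdx5 (-0.57) and fgfr4 (-0.24) did not pass. On the mild and normal arrays none of the 7 passed, where 13.5% and 0.043% of all tested probe sets did.

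Products of the yolk syncytial layer were lower while its regulator mxtx2 was higher. Of 15 genes listed, 13 were on the array and 6 tested, and 5 fell and 0 rose in severe embryos, with a median of -3.75. Among all tested probe sets, 17.6% fell and 21.0% rose. The gene apoc2 was under the background on all severe arrays and cleared the filter on dim probe sets through the other groups. With no filter on dim probe sets, 8 of the 13 fell and the median was -2.11. The transporter gene slc26a1 read 4.57, 5.60 and 6.52 on the severe arrays, 7.18 on the mild array and 8.23 on the normal array, against 8.32, 8.34 and 8.83 on the controls. In severe embryos it fell by 2.93 (limma adjusted p = 0.00117), with severe 1 under the background. The apolipoprotein gene apoc1 read 6.99, 8.25 and 7.92 on the severe arrays and 9.12 on the mild array, against a range of 11.94 to 12.90 on the controls. The differences were -4.56 in severe and -3.16 in mild embryos, and both passed (limma adjusted p = 6.15e-05 and 0.00626). On the mild array apoc2 (-3.93) and afp4 (-3.85) also fell (limma adjusted p = 0.00526 and 0.0111). Of the yolk syncytial genes tested, none passed on the normal array, where 0.043% of all tested probe sets did. Their differences there ran from -0.98 (apoc2) to 0.71 (apoa2), with apoc1 at -0.39.

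The members moved alongside markers of other parts of the embryo. In severe embryos 14 of 15 enveloping layer markers, 8 of 9 mesoderm genes and 6 of 10 ectoderm genes that were tested fell. These counts include anxa1b, anxa1c and mespaa, which lay under the background on all severe arrays. They cleared the filter on dim probe sets only through the control and normal arrays. For krt17, evpla, pkp3a, eve1 and sox2 only 1 severe array lay above the background. Of those lists, 2 ectoderm genes rose, otx1 and sox19b. Another otx1 probe set differed by 0.40 without passing (limma adjusted p = 0.377), while another sox19b probe set passed at 1.45 (limma adjusted p = 0.00378). Of 7 germ cell genes, 3 rose and 1 fell. Over all tested probe sets, 17.6% fell and 21.0% rose. The summed linear signal of the 15 enveloping layer markers ran from 6744 to 13010 in severe embryos and was 14240 in mild and 47670 in normal embryos, against 45250 to 62390 in controls. For the 13 yolk syncytial products it ran from 4318 to 8374 in severe embryos, with 10150 in mild and 20810 in normal embryos, against 18280 to 30420 in controls. The brightest gene of that list, apoeb, weighs most in its sum and fell by 0.99 in severe embryos (limma adjusted p = 0.00795). The 11 mesoderm genes summed to between 8116 and 13110 in severe and 19120 in mild embryos, against 22820 to 25880 in controls. The 7 germ cell genes summed to 7649 to 9162 in severe embryos, against 5366 to 5743 in controls. Sums for the 9 later endoderm genes overlapped, at 5360 to 8679 in severe embryos and 8671 to 9849 in controls. They were 10340 in mild and 11700 in normal embryos. The brightest genes of that list, cxcr4a and fgfr4, weigh most in its sum and did not pass in severe embryos. No enveloping layer, mesoderm, ectoderm or germ cell gene on the array lay under the background on all 8 arrays, while foxa1 of the later endoderm list and apoa4b.1 and rbp4 of the yolk syncytial list did. The part of these other cells in the members' values was not tested.

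**Figure D4:**
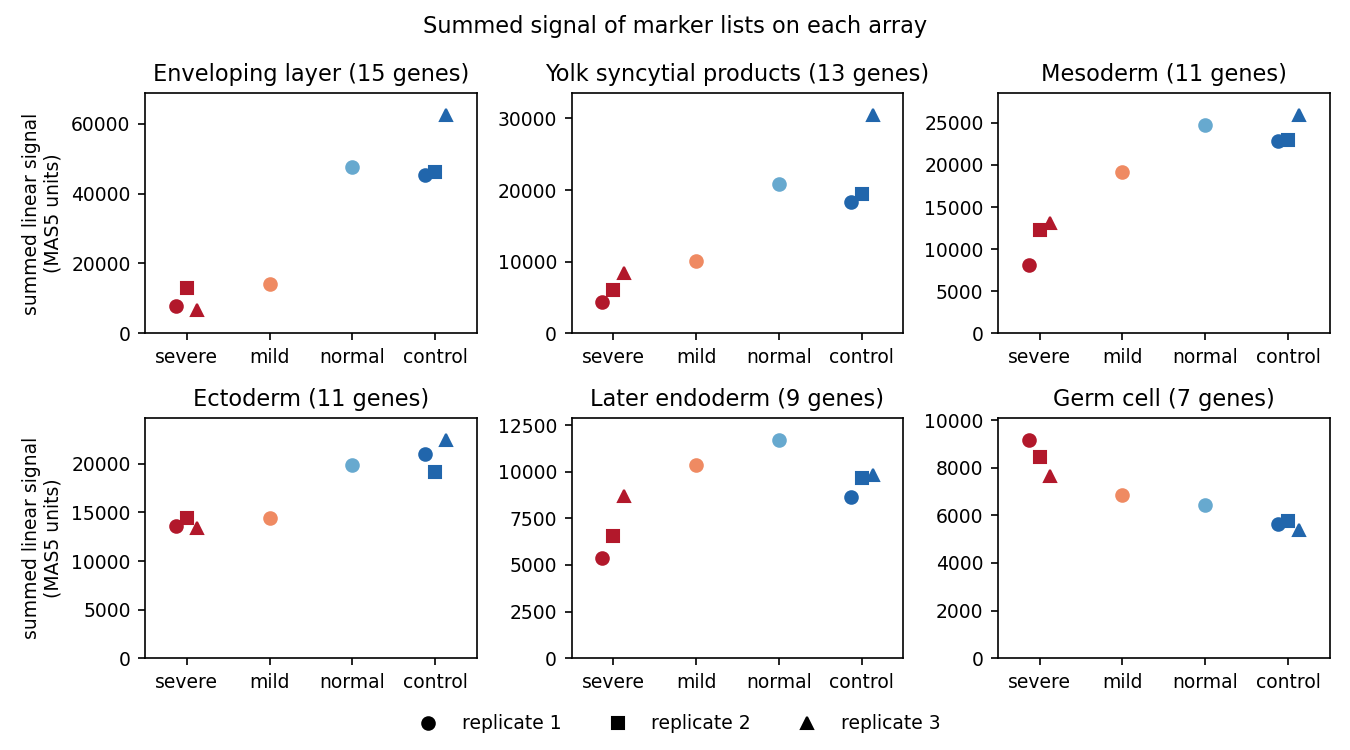
Summed linear MAS5 signal (vertical axes, each starting at 0) of the genes on the array from 6 marker lists, on each array by group, with symbols marking replicate numbers. Enveloping layer, yolk syncytial, mesoderm and ectoderm sums are lower on all 3 severe arrays than on all 3 controls, and germ cell sums are higher.

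Other genes followed the members closely over the 8 arrays, among 5782 genes compared. The highest Pearson correlations with gata6 were those of the RNA-binding protein gene rbm47 (0.998) and the respiratory chain gene ndufs6 (0.997). The rbm47 signal was 3.51, 4.17 and 4.80 on the severe arrays, 4.85 on the mild array and 8.17 on the normal array, against 8.23, 8.51 and 9.61 on the controls. Its severe and mild arrays lay under the background. For sox32 the nearest were ndufa3 (0.995) and srsf2b (0.994), for gata5 cpn1 (0.997) and ptmab (0.995), and for sebox mydgf and pfkfb3 (both 0.985). The cpn1 signal lay under the background on severe 1 (3.28) and severe 2 (4.74). For mxtx2 they were kdelr2b (0.984), an endoplasmic reticulum retention receptor gene, and brms1 (0.982). For mixl1 they were nopchap1 (0.975) and hcfc1b (0.952), and for foxa3 the hyaluronan synthase gene has2 (0.969) and hnrnpm (0.966). These values describe 8 arrays that share their groups and their scaling. They are the highest of 5782 for each member, on arrays whose first principal component held 69.3% of the variance, so they test no link between genes. The sebox readings were under or at the background on the severe and mild arrays.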

How the data were processed

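The deposited table holds log2 signals, 1 per probe set and array, which the submitters' processing notes credit to MAS5 (version not given in the sources used here). The values show each array scaled to a linear mean of about 500 after trimming 2% at each end. MAS5 leaves dim probe sets noisy. Symbols came from the platform annotation, updated by Entrez number through RefSeq's GRCz12tu table (10795 probe sets had 1 symbol, 135 several, 4572 none). No sequences were used, and RefSeq positions only for which genes neighbour each other. Of 15617 probe sets, the 115 AFFX controls were left out, as were probe sets whose mean over the 8 arrays was under its 40th percentile (log2 5.585). That left 9301, and 7 of 9 members. Of these, sebox was under the background on severe arrays and passed through the other groups. The same held for the list genes hhex and apoc2 and for some enveloping layer and mesoderm markers, which are counted among the falls. A gene was counted through its brightest probe set.

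Group means were fitted over all 8 arrays with limma 3.58.1 under R 4.3.3 (lmFit, then eBayes with a mean-variance trend), leaving 4 residual degrees of freedom, and figures drawn with matplotlib 3.10.9. Steps were tested on simulated data. The number of arrays limits precision. The background (95th percentile of 17 Tag probe sets) and the comparisons with mild and normal arrays were chosen after the values were seen. The members and lists were chosen with earlier results of these data known. Named genes were every member, up to 4 per list by smallest p plus those a count turns on, and 2 per member by correlation, without clone-style symbols. The uncalled list genes that are named were chosen after their values were seen. Alternatives covered scaling, filter, variance model, pseudocount (16), probe sets per gene, arrays in the fit, replicates left out and a replicate block.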

Additional observations from a re-analysis of the deposited data

How the results depend on the processing

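In severe against control, gata6, sox32, sebox, gata5, mixl1 and mxtx2 kept direction and call in every alternative run, with sebox left out by the filter at the 60th percentile, and foxa3 passed in 5 of 17. Scaling on hybridisation controls called 2377 probe sets (474 higher, 1903 lower) against 3587 (1951 and 1636), and moved the median of all from 0.11 to -0.17. In mild against control it moved that median from 0.03 to -0.42, and 30 higher and 967 lower passed, against 436 and 817. Median centring gave 718 and 575. Replicates left out in turn gave 615 to 1893 calls in mild against control (1253 with all), with the lowest counts without control 2 (615) and control 1 (670) and the highest without severe 3. They gave 0 to 14 in normal against control (4 with all) and 0 to 11 in severe against mild, both highest without severe 3. In severe against normal they gave 1071 to 3322 (2017 with all), from without severe 1 to without severe 3, with 1117 without severe 2. Members called were 0 to 1 in severe against mild, foxa3 passing without severe 3. With replicates 1 and 2 only, calls were 3037 in mild, 1094 in normal, 2640 in severe against mild and 4797 in severe against normal. Of the members, 2 then passed in normal against control and 4 in severe against mild. Normal against control gave 1 call with quantile normalization, 1 without the trend, 2 with no filter, and 0 with hybridisation scaling or 1 value per gene. Hybridisation scaling gave 590 in severe against normal. The causes were not tested. Signs turned only in uncalled values. With hybridisation scaling foxa3 was -0.18 in mild and -0.15 in normal. In normal against control, gata5 was 0.013 with median centring and 0.14 with replicates 1 and 2 only (-0.18 to 0.14 leaving out replicates). There sebox was 0.042 with quantile normalization and 0.0087 with median centring (-0.34 to 0.08 leaving out replicates). In severe against normal, mxtx2 was -0.13 with replicates 1 and 2 only (-0.13 to 0.37 leaving out replicates). Same-numbered control and severe arrays deviated together at correlations of 0.34, -0.07 and 0.34, and not every array correlated best with its own number. The main fit therefore did not pair them, but with 3 arrays per group these correlations cannot decide whether the numbers mark pairs. With the replicate block, 4413 probe sets and 7 of 7 members passed, foxa3 at -0.97 (limma adjusted p = 0.0127). Signals under the array background limit what can be said of sebox, sox17 and gata4.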
